A study of Mus musculus with 6 samples.

Results

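The neuron-enriched miRNAs examined here were miR-9 (both arms), miR-124, miR-128, miR-132 and miR-138, which are 6 of the 1982 rows in a table of miRNA counts from mouse serum exosomes. The rows were taken by name, as mmu-miR-9-5p, mmu-miR-9-3p, mmu-miR-124-3p, mmu-miR-128-3p, mmu-miR-132-3p and mmu-miR-138-5p. The list was chosen with earlier results of these data known. Exosomes are small vesicles that many tissues release into blood. The samples came from 6 male C57BL/6 mice aged 3 months, and each mouse gave its own library. Acu/LFES mice 4, 5 and 6 were given acupuncture of the hindlimb with low frequency electrical stimulation for 30 min, a single time, through needles placed close to the fibular nerve. The controls, sham mice 1, 2 and 3, also carried needles near that position, attached to the stimulator, which stayed off. Restraint without anesthesia is described for the treatment, and whether it was used for these controls is not given in the sources used here. Serum was drawn by heart puncture, and the time from stimulation to collection is not given in the sources used here. Serum exosomes mix the output of all tissues, so vesicles from nerve were not separated from those of other cells.

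miRNAs are short RNAs that pair through their seed, bases 2 to 8, with sites in mRNAs and lower their output. miR-9 guides neural progenitors and neuronal differentiation, and both arms of its hairpin are known regulators. miR-124 is a hallmark of differentiated neurons, in which it represses transcripts of other cell types. miR-128 tunes neuronal excitability and is also made in skeletal muscle. miR-132 is induced by neuronal activity through the transcription factor CREB and is made with its neighbour miR-212. miR-138 acts in dendrites, where it limits the size of dendritic spines.

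RefSeq on GRCm38.p6 held the mature sequences of 5 of the 6 members, and they are shown because the seed sets which miRNAs could stand in for each other. Capitals mark the seed.
miR-9-5p: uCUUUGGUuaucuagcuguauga
miR-9-3p: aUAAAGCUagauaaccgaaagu
miR-128-3p: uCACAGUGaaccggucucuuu
miR-132-3p: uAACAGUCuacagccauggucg
miR-138-5p: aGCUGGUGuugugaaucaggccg
The 5 seeds differed from each other. Of the 1623 listed miRNAs with a sequence in RefSeq, 1 other had the seed of miR-132-3p, namely miR-212-3p, and 0 others had the seed of miR-9-5p, miR-9-3p, miR-128-3p or miR-138-5p.

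Relatives whose seeds match or overlap a member's, and the opposite arms that tell a pair of hairpins apart, are shown in the same way.
miR-212-3p: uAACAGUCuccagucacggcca
miR-27a-3p: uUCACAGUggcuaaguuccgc
miR-27b-3p: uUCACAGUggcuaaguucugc
miR-128-1-5p: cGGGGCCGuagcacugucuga
miR-128-2-5p: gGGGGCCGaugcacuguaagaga
miR-138-1-3p: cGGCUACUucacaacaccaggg
miR-138-2-3p: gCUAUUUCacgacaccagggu
miR-132-3p and miR-212-3p shared 17 of 22 positions and the whole seed. miR-128-3p shared the run UCACAGUG with miR-27a-3p and miR-27b-3p, at bases 1 to 8 of miR-128-3p and bases 2 to 9 of the others, so their seeds overlapped but were set off by a base.

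In GRCm38.p6, miR-128-3p comes from Mir128-1, at chr1:128202361-128202430 within a protein-coding gene, in an R3hdm1 intron, and from Mir128-2, at chr9:112118636-112118711 in an Arpp21 intron. Mir212 (chr11:75173388-75173478) and Mir132 (chr11:75173682-75173747) lay 203 bases apart, both inside an intron of the noncoding 1700016P03Rik. miR-138-5p comes from Mir138-1 (chr9:122682876-122682974), which overlaps an exon of the pseudogene Gm47135, and from Mir138-2 (chr8:94324311-94324381), which overlaps an exon of noncoding C78859. miR-9 comes from Mir9-1 (chr3:88215598-88215686), Mir9-2 (chr13:83738814-83738885) and Mir9-3 (chr7:79505264-79505353), each within a long noncoding RNA gene (GENCODE M21). Reads of a mature miRNA that is identical in several hairpins cannot be assigned to any of them.

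Libraries differed in depth, from 391708 to 658833 counts in the sham mice and from 517421 to 1504137 in the Acu/LFES mice. The library of Acu/LFES mouse 4 was the deepest of the 6. The red-cell miRNAs, mainly miR-486a-5p and miR-486b-5p, took 61.8% to 74.1% of a sham library, 62.1% and 73.6% of the libraries of Acu/LFES mice 4 and 5, and 29.4% of that of mouse 6, so mouse 6 stood apart in composition. Both miR-486 rows held the same count in every mouse. With that count taken once, the red-cell share was 17.3% in mouse 6, 45.2% and 58.2% in mice 4 and 5, and 44.8% to 58.9% in the sham libraries. Levels are therefore given as CPM, counts per 1000000 of the library total after scaling by edgeR's TMM factors, which align libraries on the bulk of their miRNAs. Where the plain library total was used instead, the level is given as RPM. The low share of mouse 6 lay in the miR-486 rows. There, miR-451a stood at 941 CPM, against 691 to 1299 CPM in the sham mice. miR-144-5p stood at 189 CPM, against 107 to 350 CPM. The markers of the other cell types measured for the same libraries were mostly counted, with 5 of 5 red-cell, 5 of 6 skeletal muscle, 4 of 4 white-cell and platelet, 2 of 2 endothelial, 2 of 2 pancreatic islet and 1 of 1 liver miRNAs having a count, and miR-208b-3p of the muscle list at 0. Libraries named as separate mice were the replicates, and the tests set group differences against the variation between mice.

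Of the 6 neuron-enriched miRNAs, miR-128-3p and miR-132-3p were counted in every mouse, miR-9-5p, miR-124-3p and miR-138-5p were counted in Acu/LFES mouse 4 and in no other mouse, and miR-9-3p had 0 counts in every mouse. miR-128-3p provided 95.8% of the counts of the 6. Of the 2 members with enough counts to be tested, 0 passed the test between sham and Acu/LFES. The study asked which exosomal miRNAs in serum a single session of stimulation alters, and here the question is put for miRNAs known from neurons, since the needles lay close to a nerve. In bulk serum exosomes, fewer vesicles of a cell type and less miRNA per vesicle cannot be told apart.

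miR-128-3p was the most abundant member by far. Its count was 1258, 880 and 749 in sham mice 1, 2 and 3 and 3955, 1166 and 2115 in Acu/LFES mice 4, 5 and 6. Scaled, sham mice had 1814, 2053 and 2475 CPM, and Acu/LFES mice had 2367, 2424 and 1930 CPM. The groups overlapped, since sham mouse 3 was highest and sham mouse 1 lowest, with the 3 Acu/LFES mice between them. It held rank 36 of the 259 miRNAs tested by mean CPM, and ranks 32 to 41 within single libraries.
The level of miR-128-3p averaged 2114 ± 335 CPM after sham and 2240 ± 270 CPM after Acu/LFES treatment (SD, n = 3). Its log2 fold change of Acu/LFES over sham was 0.08 (SE 0.22, 95% interval from -0.41 to 0.58), and edgeR's quasi-likelihood F test gave an adjusted p of 0.929 over all miRNAs tested. Without Acu/LFES mouse 4, the deepest library, it was 0.04, and without mouse 6, the one low in miR-486, it was 0.23. Under a two-sided exact permutation test of CPM, p was 0.7 (adjusted 0.8 over the 4 values compared in this way), where 3 mice against 3 cannot go below 0.1. With library totals in place of TMM factors, the log2 fold change was 0.70, where the median over all miRNAs tested was 0.71.

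**Figure D1:**
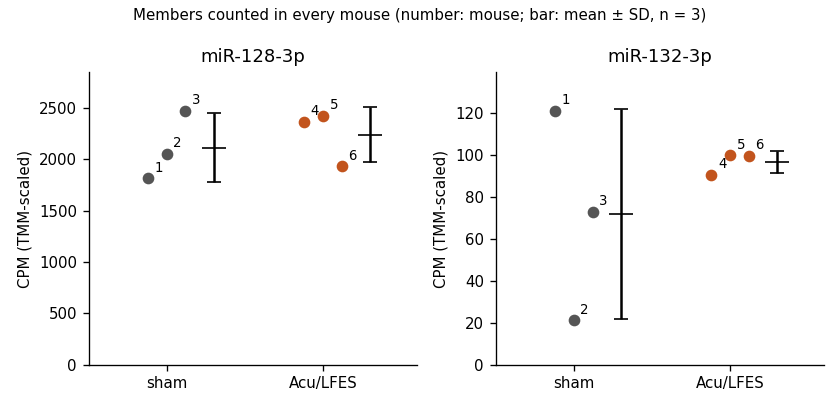
CPM of miR-128-3p (left) and miR-132-3p (right) in each mouse, with the mouse number beside each point and the mean ± SD (n = 3) as a bar beside each group. miR-128-3p lay between 1814 and 2475 CPM in the 6 mice with overlapping groups, whereas miR-132-3p spread from 21.0 to 121 CPM after sham and from 90.4 to 99.8 CPM after Acu/LFES treatment.

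The spread of miR-128-3p between mice was small. Its coefficient of variation over the 6 mice, the SD as a percent of the mean, was 12.9%, the 7th lowest of the 259 miRNAs tested, whose median was 47.1%. Since low counts spread more, it was also set beside the 50 miRNAs of at least 1000 CPM, whose median was 26.3%, and it was the 5th lowest of them. With each library scaled to its total without miR-486a-5p and miR-486b-5p the value was 13.5%, again the 7th lowest. With the whole library total it was 42.0% and the 41st lowest, with Acu/LFES mouse 6 highest at 4088 RPM. miR-103-3p, which the study used as its serum reference in qPCR, had a coefficient of variation of 38.8% on the TMM scale. It was 33.8% without the miR-486 rows. With the whole library total it was 44.0%, close to the 42.0% of miR-128-3p, so the contrast between these miRNAs depended on the scaling.
The log2 ratio of miR-128-3p to miR-103-3p within a library needs no scaling. It was 1.32, 0.58 and 2.20 for mice 1 to 3 (sham) and 1.19, 1.99 and 1.58 for mice 4 to 6 (Acu/LFES). Sham mice held both the lowest and the highest ratio (p = 0.8 by a two-sided exact permutation, adjusted 0.8 over 4 values).

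**Figure D2:**
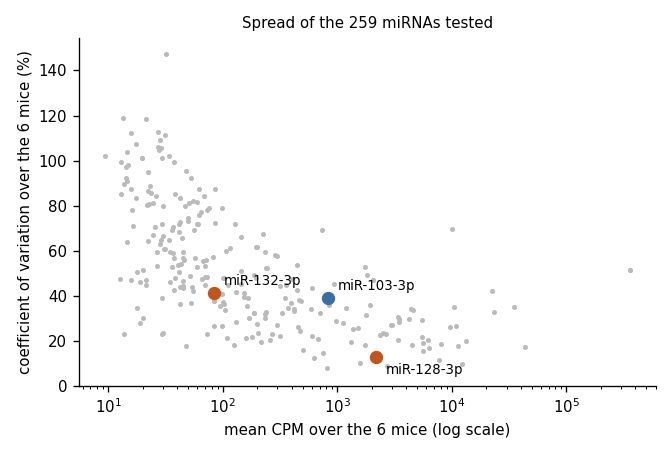
Coefficient of variation over the 6 mice against mean CPM (log scale) for the 259 miRNAs tested, each a grey point, with miR-128-3p, miR-132-3p and miR-103-3p marked. miR-128-3p lies near the lower edge at 12.9%, while miR-132-3p at 41.2% lies among the miRNAs of its own level.

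miR-132-3p, the activity-induced member, was 25.9-fold less abundant than miR-128-3p by mean CPM. Its count was 84, 9 and 22 in sham mice 1, 2 and 3 and 151, 48 and 109 in Acu/LFES mice 4, 5 and 6. Scaled, sham mice stood at 121, 21.0 and 72.7 CPM, and Acu/LFES mice at 90.4, 99.8 and 99.5 CPM. The Acu/LFES mice lay close together, inside the range of the sham mice, of which mouse 2 was low and mouse 1 high.
miR-132-3p averaged 71.6 ± 50.1 CPM after sham and 96.5 ± 5.35 CPM after Acu/LFES treatment (SD, n = 3). The log2 fold change was 0.42 (SE 0.67, 95% interval from -1.07 to 1.91), with an adjusted p of 0.902 in edgeR, and its direction rested on sham mouse 2. Without that mouse it was -0.019, and without sham mouse 1 it was 1.07. Leaving out Acu/LFES mouse 4 or mouse 6 gave 0.43 and 0.39. A two-sided exact permutation test of CPM gave p = 0.6, adjusted 0.8 over 4 values.
The log2 ratio of miR-132-3p to miR-128-3p set both members against each other within a library. Mice 1 to 3 (sham) had -3.90, -6.61 and -5.09, and mice 4 to 6 (Acu/LFES) had -4.71, -4.60 and -4.28. Sham mice again held both extremes (p = 0.5 by the same exact permutation, adjusted 0.8). This ratio and that to miR-103-3p were chosen after the counts were seen.

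In the edgeR fit of all 259 miRNAs, 0 of the 2 members tested and 0 miRNAs in all (0%) had an adjusted p under 0.05, and 0 members but 23 miRNAs (8.88%) had an unadjusted p under 0.05. DESeq2 with its size factors and Wald test called 0 members and 9 of the 259 miRNAs at an adjusted p under 0.05. Neither tested member separated the groups without overlap, as 44 of the 259 miRNAs (17%) did. The median log2 fold change over all miRNAs tested was 0.05.

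**Figure D3:**
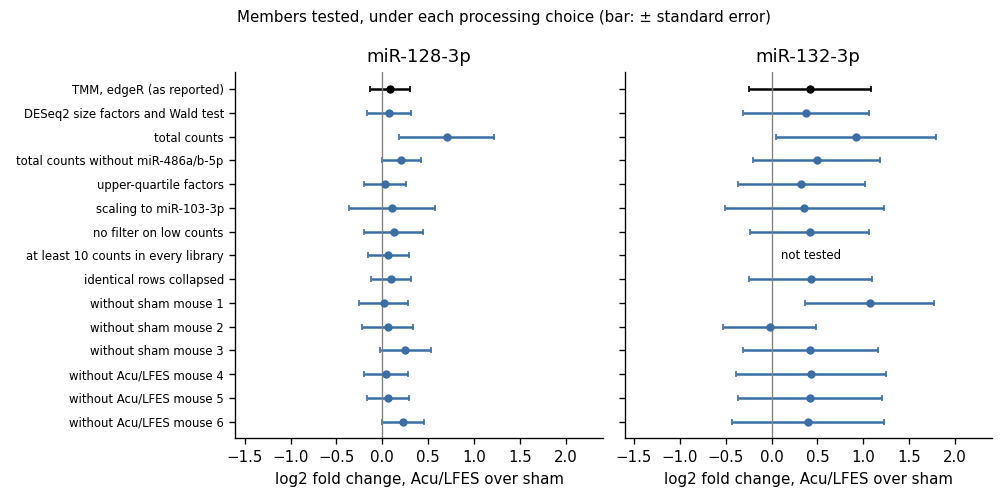
Log2 fold change of Acu/LFES over sham (horizontal axis) for miR-128-3p and miR-132-3p under each processing choice, with the reported fit on top and bars of ± standard error. miR-128-3p ran from 0.013 to 0.70, with the highest value under library totals, and miR-132-3p from -0.019 without sham mouse 2 to 1.07 without sham mouse 1.

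The other 4 members were under the filter on low counts and were not tested. miR-9-5p had 17 counts in Acu/LFES mouse 4 and 0 in the other 5 mice. miR-124-3p had 6 counts in mouse 4 and 0 elsewhere. miR-138-5p had 3 counts in mouse 4 and 0 elsewhere. miR-9-3p, the opposite arm of miR-9, was at 0 throughout, which allows at most 1.99 RPM in mouse 4 when 3 counts are taken as the limit.
Of the 5 members with any count, 3 were counted in mouse 4 alone, beside 136 of the 954 miRNAs with a count (14.3%). The same 3 were counted in an Acu/LFES mouse and in no sham mouse, beside 363 of the 954 (38.1%). Mouse 4 had the deepest library, with 666 miRNAs counted against 338 to 533 in the other mice. Without mouse 4, 2 of the 6 members had a count in any mouse.

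How far these zeros differ from the level in mouse 4 can be read from the counting error, which is all that the intervals here cover. Here and below, a level in the only library with a count is set beside zeros as a description, without a test. Since that library is the one where the miRNA was counted, the contrast is partly fixed beforehand. miR-9-5p stood at 11.3 RPM in mouse 4 (exact 95% interval from 6.58 to 18.1). A count of 0 allows up to 4.80, 4.55 and 7.66 RPM in sham mice 1, 2 and 3, and up to 4.75 and 5.80 RPM in Acu/LFES mice 5 and 6. The interval of mouse 4 lay above the limits of sham mice 1 and 2 and of Acu/LFES mouse 5, but not above that of sham mouse 3. It also started above the 5.80 of Acu/LFES mouse 6, but this limit is 1-sided and the interval 2-sided. A 2-sided limit is higher, so a separation from mouse 6 is not claimed. Leaving the miR-486 rows out of the totals, miR-9-5p was at 29.6 RPM in mouse 4 (from 17.3 to 47.5). On this scale the limits of sham mouse 1 (12.5) and Acu/LFES mouse 6 (8.18) were below the interval, and those of the other 3 mice, 17.5 to 26.6, were not.
At the share of miR-9-5p in mouse 4, the other libraries would hold between 4.43 and 7.45 counts by library total, or between 3.08 and 11.1 by TMM-scaled total. For miR-124-3p this would be 1.56 to 2.63 counts by library total, under the 3-count limit in each library, or 1.09 to 3.94 by TMM-scaled total, which passes that limit in Acu/LFES mouse 6. Over the other 5 libraries together, which span both groups, 11.3 counts by library total or 10.8 by TMM-scaled total would be held at that share. In them, 0 were counted. Its level in mouse 4 was 3.99 RPM, with an exact 95% interval from 1.46 to 8.68 that spans the limits of every other mouse. miR-138-5p was at 1.99 RPM (exact 95% interval from 0.411 to 5.83), under the limit in every other mouse, and its share would give 5.63 counts by library total in those 5 libraries together. Had mouse 4 been sequenced to the smallest total, 391708 counts, miR-9-5p would still have shown at least 1 count with a chance of 99.4%, miR-124-3p with 83.6% and miR-138-5p with 59.5%, given the reads it has.
The members therefore ranked from miR-128-3p through miR-132-3p to miR-9-5p, miR-124-3p and miR-138-5p in mouse 4. The intervals of miR-9-5p and miR-124-3p overlapped, as did those of miR-124-3p and miR-138-5p, while those of miR-9-5p and miR-138-5p did not. Levels of different miRNAs in a library made by adapter ligation also depend on how well each sequence ligates, which was not measured.

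**Figure D4:**
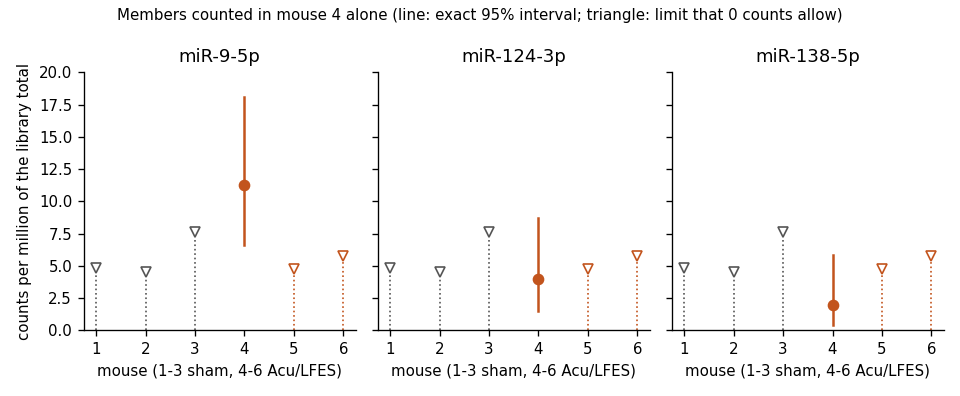
Level per library total (RPM) of miR-9-5p, miR-124-3p and miR-138-5p in each mouse, with exact 95% intervals as lines for mouse 4 and open triangles at the limit that 0 counts allow (3 counts) for the others. For miR-9-5p the mouse 4 interval starts at 6.58, above every limit except the 7.66 of sham mouse 3, whereas for miR-124-3p and miR-138-5p the mouse 4 value lies below the limits of the other 5 mice.

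The arms and neighbours of the members added few counts. Of the 8 such rows in the table, 4 had a count in some mouse. miR-212-3p, which shares a seed and a locus with miR-132-3p, had 7, 0 and 12 counts in sham mice 1, 2 and 3 and 11, 3 and 12 in Acu/LFES mice 4, 5 and 6. Its zero fell in sham mouse 2, the mouse with the lowest miR-132-3p. The highest level of miR-212-3p, 39.7 CPM, fell in sham mouse 3, whereas miR-132-3p was highest in sham mouse 1. Over all libraries there were 423 counts of miR-132-3p and 45 of miR-212-3p, a ratio of 9.4.
miR-128-1-5p, from the R3hdm1 intron, had 6 counts in Acu/LFES mouse 4 and 1 in mouse 6, and miR-128-2-5p, from the Arpp21 intron, had 0. Against 10123 counts of miR-128-3p, the 5p arms had 7 in all, so the hairpin of origin could not be read from them. miR-138-1-3p had 15 counts in Acu/LFES mouse 6 and 0 elsewhere, whereas miR-138-5p, which the same hairpin also gives, was counted in mouse 4 alone. In mouse 6 this arm stood at 29.0 RPM (exact 95% interval from 16.2 to 47.8), above the limits of the other mice, which were at most 7.66. Without the miR-486 rows in the totals it was 40.9 RPM (from 22.9 to 67.5), and the limit of sham mouse 3, 26.6, then lay within the interval. miR-138-2-3p, miR-132-5p and miR-212-5p were at 0 in every mouse, and miR-124-5p had 1 count, in sham mouse 1.

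miR-27a-3p and miR-27b-3p carry the overlapping seed. miR-27a-3p averaged 419 ± 133 CPM after sham and 535 ± 229 CPM after Acu/LFES treatment (SD, n = 3), with overlapping groups. For miR-27b-3p the means were 764 ± 144 CPM (sham) and 1184 ± 205 CPM (Acu/LFES), and the groups did not overlap. Its log2 fold change was 0.63 with an SE of 0.25, and its adjusted p in edgeR was 0.518. The difference between its fold change and that of miR-128-3p was not tested.

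A further 14 miRNAs known from the nervous system were looked up beside the members. Of these, 7 had 0 counts in every mouse, among them miR-137-3p and miR-153-3p of neurons, miR-135a-5p, and miR-338-3p of myelinating glia. miR-129-5p, a brain-enriched miRNA, had 26 counts in Acu/LFES mouse 4 and 0 elsewhere, and miR-129-2-3p of the same family had 7 there and 0 elsewhere. They were 2 of the 7 of this list with any count, beside the 14.3% of all counted miRNAs that were counted in mouse 4 alone, and the shares were not compared by a test.
The level of miR-129-5p in mouse 4 was 17.3 RPM (exact 95% interval from 11.3 to 25.3), above the limit in each other mouse. Without the miR-486 rows it was 45.3 RPM (from 29.6 to 66.4). The highest 1-sided limit on this scale was the 26.6 of sham mouse 3. A 2-sided limit is higher, so a separation from that mouse is not claimed. miR-338-5p had 7 counts in Acu/LFES mouse 6 alone, and the oligodendrocyte miRNAs miR-219a-5p and miR-219a-2-3p had 1 count each, in Acu/LFES mouse 6 and sham mouse 3.

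miR-218-5p, which is enriched in motor neurons, and miR-134-5p, a dendritic miRNA from the imprinted Dlk1-Dio3 cluster, were the 2 of this list with enough counts to be tested. miR-218-5p had 0, 25 and 12 counts in sham mice 1, 2 and 3 and 71, 6 and 108 in Acu/LFES mice 4, 5 and 6, or 0, 58.3, 39.7, 42.5, 12.5 and 98.6 CPM in that order. Both groups held low and high mice, and the log2 fold change was 0.68 with an SE of 1.27 (edgeR, adjusted p = 0.919). miR-134-5p had 74, 15 and 0 counts in mice 1 to 3 and 69, 15 and 12 in mice 4 to 6. Its highest and lowest levels, 107 and 0 CPM, both fell in sham mice, and its log2 fold change was -0.79 with an SE of 1.19 (edgeR, adjusted p = 0.883). Thus 0 of these 2 passed in either direction.

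**Figure D5:**
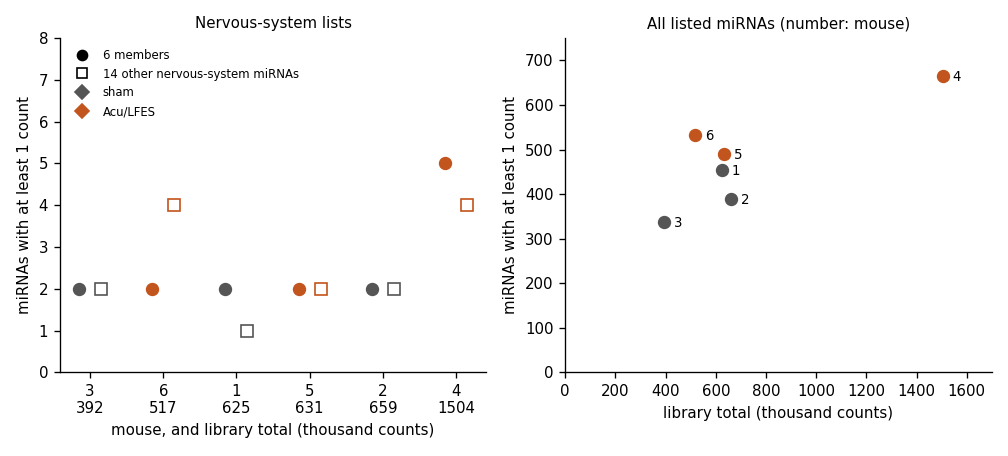
Number of miRNAs with at least 1 count in each mouse: the 6 members (filled circles) and 14 other nervous-system miRNAs (open squares), ordered by library total (left), and all listed miRNAs against the library total (right). Each of the other 5 mice had 2 members against 5 in mouse 4, which had the deepest library, and Acu/LFES mice 4 and 6 each had 4 of the other nervous-system miRNAs.

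The summed level of the 6 members ranged from 1935 to 2548 CPM after sham and from 2029 to 2524 CPM after Acu/LFES treatment, which is a description without a test. As a share of all counts it was 0.135% to 0.215% in the former and 0.192% to 0.430% in the latter, where mouse 6, with its low miR-486 share, was highest. For scale, the skeletal muscle miRNAs summed to between 10094 and 11262 CPM (sham) and between 7483 and 12453 CPM (Acu/LFES), and 0 of the 3 tested had an adjusted p under 0.05. The part of muscle or blood cells in the level of miR-128-3p was not tested.

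The profiles most like those of the tested members were found by the root mean square difference of log2(CPM + 0.5) over the 6 mice, each miRNA centred on its own mean. For miR-128-3p they were miR-25-3p at 0.15, miR-10b-5p at 0.15 and miR-93-5p at 0.18, against a median of 0.70 over the 258 other miRNAs. For miR-132-3p they were miR-28a-3p at 0.26, miR-1843b-5p at 0.36 and miR-872-5p at 0.46, against a median of 1.09. The 3 miRNAs nearest to miR-128-3p had log2 fold changes of 0.12, 0.03 and 0.18 in that order, and those nearest to miR-132-3p had 0.32, 0.07 and 0.83. Matching over the same mice draws these values towards that of the member, so they are no separate evidence.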

How the data were processed

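Small RNA of serum exosomes was sequenced in 3 sham and 3 Acu/LFES mice, grouped by the sample labels. The table the authors deposited holds counts, unscaled whole numbers of reads for each mature miRNA in each mouse. The submitters' processing notes list bcl2fastq, cutadapt 1.6 and DESeq2 1.26.0 without their roles. The aligner, counter and miRNA annotation, which decide how reads of similar miRNAs are shared, are not given in the sources used here. Of the 1982 rows, 67 were named for viral or plant miRNAs and held between 0 and 44 counts per library. They stayed in the totals.

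edgeR 4.0.16 in R 4.3.3 was run on the whole table (default filter, TMM factors, quasi-likelihood test, Benjamini-Hochberg adjustment, threshold 0.05). It tested 259 of the 954 miRNAs with a count. The fit was also run on simulated counts with the same dispersion for every miRNA. Apart from the changes put in, all simulated libraries had the same composition, unlike the real ones. That run therefore does not measure the accuracy of the fit on these data. The standard error was taken from the F statistic. Single values were compared by exact permutation tests (scipy 1.17.1). Exact binomial intervals and the limit of 3 counts cover counting error only, with each read taken as independent. The sources name no molecular identifiers, so reads amplified from the same molecule could not be told apart.

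The members and lists were chosen with earlier results of these data known. The miRNAs named are the members, their other arms and cluster partners, nervous-system and other cell type markers, miR-27a/b-3p, miR-103-3p and the 3 nearest profiles of each tested member. miR-9b, an antisense relative, was not analysed here. Alternatives were DESeq2 1.42.0, 4 other scalings, 2 other filters, collapsed identical rows, thinning, and each mouse left out. Sequences and loci are from RefSeq on GRCm38.p6, host genes from GENCODE M21, and figures from matplotlib 3.10.9.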

Additional observations from a re-analysis of the deposited data

How the results depend on the processing

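The number of members at an adjusted p under 0.05 was 0 in the reported fit and in all 14 alternatives, including the 6 that each left out a mouse. Over all miRNAs the number was 0 in edgeR's fits and 9 of 259 with DESeq2. The count at an unadjusted p under 0.05 ran from 7 of 259, scaled to miR-103-3p, to 53 of 954 with no filter. Without sham mouse 1 it was 48 of 303. The log2 fold change of miR-128-3p stayed above 0, from 0.013 to 0.25 across the fits that left out a mouse and from 0.030 to 0.70 across the others (adjusted p from 0.601 to 1). Its sign relative to the median of all miRNAs, which moves with the scaling, was not tested. The log2 fold change of miR-132-3p ran from -0.019, without sham mouse 2, to 1.07 across the fits that left out a mouse. Across the others it ran from 0.32 to 0.92 (adjusted p from 0.594 to 1 over both). With at least 10 counts required in every library, miR-132-3p was not tested. With no filter, the adjusted p of miR-9-5p, miR-124-3p and miR-138-5p was 0.577, 0.578 and 0.630. The summed level of the members, 0.10 on the log2 scale of group means, was 0.71 by share of the library total and 0.51 without miR-128-3p, and from 0.020 to 0.22 with a mouse left out. Under library totals the median log2 fold change of the 259 miRNAs tested was also 0.71. The cause was not tested.

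The number of members counted in a library was the same with at least 3 counts. Thinned to the smallest library total, mouse 4 would hold 4.43 members on average, and 4.19 when thinned outside the miR-486 rows, against 2.00 in the other mice. These values start from the reads already seen in mouse 4, and the 2.00 is fixed by the zeros of the other mice. Thinning was not run over all miRNAs, and the part of depth in the difference was not tested. The nearest profiles were the same 3 for each tested member with a pseudocount of 2. No paired analysis was possible because mice 1 to 6 carry different numbers. Depth limits the rarest members most, since 3 counts in sham mouse 3 already stand at 7.66 RPM.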
